A study of Rattus norvegicus with 18 samples.

Results

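Astrocyte identity and reactivity were followed through 9 genes in rat brain cortex: Gfap, Vim, Nes, Aqp4, Gja1, S100b, Aldh1l1, Serpina3n and Lcn2. They were picked by name, as every array probe of a gene symbol in that list, and they are 9 of the 15502 gene symbols that could be named on the array. They had 11 probes, of which 10 were bright enough to be tested and covered all 9 genes. RNA came from brain cortex of male Crl:CD(SD)BR rats and was read on 18 single-colour arrays, 3 in each of 6 groups. At both 2 h and 6 h after middle cerebral artery occlusion (MCAO), a surgical model of ischemic stroke, there was a sham-operated group without treatment, an ischemic group given saline and an ischemic group given erythropoietin (EPO). EPO, the hormone that drives red blood cell production, was given at a dose the labels do not state. The sham groups share the operation with the ischemic groups but received no saline, so they differ from the saline group in both ischemia and injection.

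Astrocytes are the glia that clear glutamate, buffer potassium and wrap the blood vessels and synapses of the cortex. After injury they become reactive: they build more of the intermediate filament proteins and secrete acute-phase proteins, largely downstream of cytokine receptors, STAT3 and NF-kB, while the genes of their housekeeping functions may stay on, rise or fall. Gfap, Vim and Nes encode filament proteins, Serpina3n and Lcn2 secreted proteins typical of reactive astrocytes, and Aqp4, Gja1, S100b and Aldh1l1 serve as markers of astrocyte identity. In whole cortex, a change in the number of astrocytes and a change in RNA per astrocyte cannot be told apart, and several of these genes are also read from other cells: Vim and Nes from vessel walls, Lcn2 from neutrophils, S100b from oligodendrocytes.

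Each value is the log2 processed signal of a probe minus the 75th percentile of its array (log2 relative signal), differences are on the log2 scale, written ± their fitted standard error, and n = 3 arrays per group throughout. A gene is said to rise or fall only where limma's moderated test, adjusted by Benjamini-Hochberg over all 28634 probes tested, gave an adjusted p under 0.05. The labels list 1 sample per array, and p-values measure the spread between these samples. Precision is set by having 3 arrays per group, with a typical (median) standard error of 0.13 per difference. Signals of different probes are not set against each other.

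The arrays were not of 1 kind. In 6 of them the spiked-in control transcripts gave a steeper slope of log signal on log amount (0.914 to 0.941, against 0.788 to 0.866 in the other 12) and fewer probes were well above background (61.5% to 66.4%, against 68.6% to 80.6%). These steep arrays were 2 of the 3 for ischemia with saline at 6 h, none of sham at 2 h and 1 in each other group. A fit without these 6 arrays keeps 1 array of ischemia with saline at 6 h, whose spread is then taken to be that of the other groups, so calls on that group are lost in it also for want of arrays. For a member whose call is lost in that fit, the difference in it is given beside the call. The median difference over all probes tested was -0.13 for ischemia with saline against sham at 6 h, so values near it are not shifts of a gene against the rest of the array. Of the marker lists for other cells of the cortex, 11 of 11 neuron markers and 12 of 12 oligodendrocyte markers were measured.

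The promoters of the 4 genes that rose in ischemia with EPO at 6 h are shown because the filament and acute-phase genes are textbook targets of STAT3 and NF-kB. Each is the 250 bases before the start site on the strand of the gene, from RefSeq with build GRCr8, in lower case, with the letters of a searched motif in capitals. The motifs were TTCNNNGAA (STAT type), the same ends with 4 bases between them, TGANTCA (AP-1) and the NF-kB consensus, on both strands, and no matches overlapped in these windows. Serpina3n lies at chr6:129088142-129088391 (plus strand), Lcn2 at chr3:36081781-36082030 (minus), Gfap at chr10:88361662-88361911 (minus) and Nes at chr2:175736338-175736587 (plus).

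Serpina3n: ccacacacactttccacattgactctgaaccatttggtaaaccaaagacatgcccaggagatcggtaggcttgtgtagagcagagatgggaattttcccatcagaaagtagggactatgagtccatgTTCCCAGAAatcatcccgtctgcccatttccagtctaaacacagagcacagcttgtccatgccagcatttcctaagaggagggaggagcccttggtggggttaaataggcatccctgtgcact

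Lcn2: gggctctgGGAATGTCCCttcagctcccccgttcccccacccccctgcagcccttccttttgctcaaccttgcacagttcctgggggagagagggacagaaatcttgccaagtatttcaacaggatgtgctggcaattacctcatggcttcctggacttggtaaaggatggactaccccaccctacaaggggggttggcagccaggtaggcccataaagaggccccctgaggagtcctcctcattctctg

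Gfap: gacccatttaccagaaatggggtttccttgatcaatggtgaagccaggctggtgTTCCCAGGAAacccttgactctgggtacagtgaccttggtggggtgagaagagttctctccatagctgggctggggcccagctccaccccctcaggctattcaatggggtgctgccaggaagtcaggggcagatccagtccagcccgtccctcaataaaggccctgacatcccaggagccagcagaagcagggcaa

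Nes: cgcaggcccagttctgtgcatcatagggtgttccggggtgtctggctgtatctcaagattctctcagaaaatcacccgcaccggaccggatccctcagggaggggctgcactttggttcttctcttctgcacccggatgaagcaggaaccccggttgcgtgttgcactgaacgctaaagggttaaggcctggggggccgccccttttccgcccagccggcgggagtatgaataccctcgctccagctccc

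The Serpina3n window holds 1 match to TTCNNNGAA, from 123 to 115 bases before the start site, a motif present in 7.67% of the 33469 rat promoter windows of this length. Lcn2 holds 1 match to the NF-kB consensus, from 242 to 233 bases before the start (3.54% of windows). Gfap holds no match to TTCNNNGAA. Its window has 1 match to the form with 4 bases between, from 196 to 187 bases before the start (6.25%). In the Nes window none of these letters was found. The start sites are those of RefSeq's promoter set, and they lie inside the listed gene span by 873 bases for Nes and 71 for Lcn2, so the sequence before the outermost Nes start was not searched. Of the members that did not rise against sham, Vim holds an NF-kB consensus match and Gja1 1 match to TGANTCA (6.34% of windows). These are matches of letters in a short window, and binding was not measured.

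Among the 9 genes, ischemia with saline left none past the test at 2 h and raised 2 at 6 h, Serpina3n and Nes. In ischemia with EPO none passed at 2 h and 4 rose at 6 h: Serpina3n, Lcn2, Nes and Gfap. Of all probes tested, 1.24% were called in ischemia with saline at 2 h and 11.0% at 6 h, and 1.33% and 16.1% in ischemia with EPO at these times. Counting higher calls alone, the 6 h shares of all probes were 4.79% with saline and 6.53% with EPO. The split of these calls moved with the scaling: 1372 probes were higher and 1792 lower with saline at 6 h, against 849 and 416 with no scaling and 1433 and 1115 with quantile normalization. Without overlap between the arrays, 5 of the 9 members differed from sham with saline at 6 h (32.3% of all probes did) and 4 with EPO (31.0%), so non-overlap alone was common on these arrays. At an unadjusted p under 0.05 limma gave 1 gene of the 9 at 2 h in either ischemic group, Nes, which was below sham in both, against 3320 of all probes with saline (11.6%) and 3450 with EPO. No member was lower than sham past the adjusted test at either time. The 2 ischemic groups were compared with the same sham arrays, so their values are given side by side and are not independent.

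**Figure D1:**
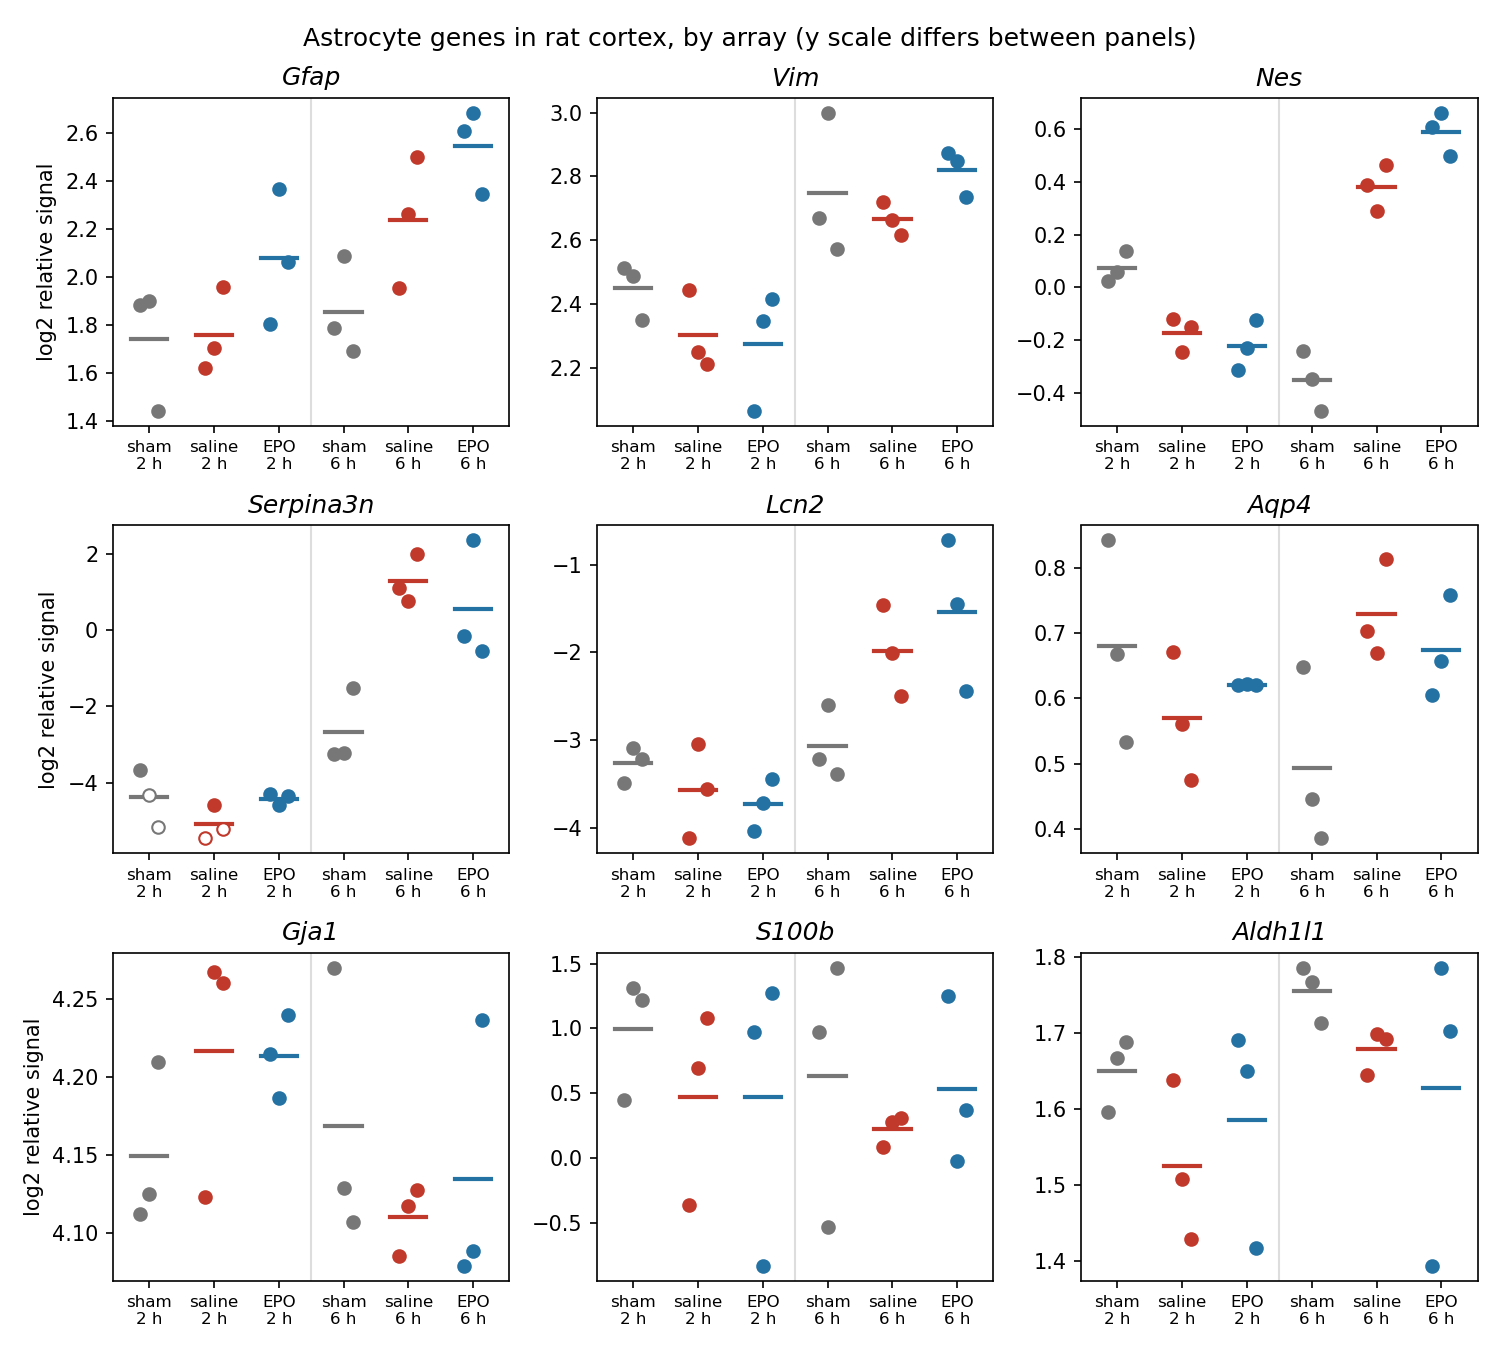
Log2 relative signal (y axis, scale set per panel) of the 9 genes on each of the 18 arrays, by group (x axis; sham grey, ischemia with saline red, ischemia with EPO blue). Points are arrays, lines are group means of n = 3, and open points were not well above background. Serpina3n at 6 h runs from 0.77 to 1.98 with saline and from -3.24 to -1.51 in sham.

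Serpina3n, an acute-phase inhibitor of serine proteases, had the largest difference among the 9 genes. Its gene lies on chromosome 6 at 129088392 to 129095950 (GRCr8). At 6 h its log2 relative signal was -3.24, -3.23 and -1.51 in sham, 1.1, 0.77 and 1.98 in ischemia with saline, and -0.155, 2.35 and -0.54 in ischemia with EPO. All 6 ischemic arrays lay above all 3 sham arrays, and 1 sham array stood well above the other two. Serpina3n was thus 15.4-fold higher with saline (3.95 ± 0.68, adjusted p = 0.00256) and 9.27-fold higher with EPO (3.21 ± 0.68, adjusted p = 0.00595). Within the 2 slides that held both groups, the difference was 4.0 to 5.22 with saline and 2.70 to 5.58 with EPO. Without the 6 steep arrays, which leaves 1 array of ischemia with saline at 6 h, the differences were 3.14 with saline (adjusted p = 0.297) and 3.47 with EPO (adjusted p = 0.056).

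At 2 h Serpina3n was close to background. It was well above background on 1 of 3 sham arrays, 1 of 3 with saline and 3 of 3 with EPO. The 2 h signals were -3.66, -4.31 and -5.17 in sham, -5.45, -4.58 and -5.22 with saline, and -4.31, -4.59 and -4.35 with EPO, which overlap throughout. The difference from sham was -0.70 ± 0.68 with saline (adjusted p = 0.664) and -0.04 ± 0.68 with EPO (adjusted p = 0.983). From 2 h to 6 h Serpina3n rose by 6.37 ± 0.68 with saline (adjusted p = 0.00014), where 2 of the 3 arrays at 2 h were not well above background, and by 4.97 ± 0.68 with EPO (adjusted p = 0.000615), while the sham groups differed by 1.72 ± 0.68 (adjusted p = 0.434). All 3 sham arrays at 6 h read above all 3 at 2 h, and on the 1 slide with both sham groups they differed by 3.66. That slide held the highest sham array at 6 h (-1.51) and the lowest at 2 h (-5.17), which was not well above background. The rise with saline was 5.67 without the steep arrays (adjusted p = 0.122). Serpina3n belongs to a cluster of closely related inhibitor genes, and cross-hybridization of its probe was not tested.

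Lcn2 encodes lipocalin-2, a secreted protein that binds bacterial iron carriers and is made by reactive astrocytes and by neutrophils. The gene is on chromosome 3 at 36078432 to 36081851. At 6 h its signal was -3.21, -2.59 and -3.38 in sham, -1.45, -2.01 and -2.50 with saline, and -0.72, -1.45 and -2.44 with EPO, and it was well above background on all 18 arrays. Every ischemic array at 6 h read higher than every sham array, but the ischemic groups themselves spread over more than the sham group. With EPO, Lcn2 rose 2.88-fold over sham (1.53 ± 0.40, adjusted p = 0.0197). With saline the difference of 1.08 ± 0.40 did not pass the test (adjusted p = 0.11). It was called with the spike-in class as a block or the slope as a covariate. Within groups Lcn2 read lower on arrays of steeper slope (Pearson r = -0.58, both centred on the group mean). At 6 h the steep arrays were 2 of 3 with saline and 1 of 3 in sham and with EPO. The steep saline arrays at 6 h read -1.45 and -2.50, on either side of the other one at -2.01. The part of the slope in the Lcn2 difference with saline was not tested. The EPO call was lost without either of sham replicates 1 and 3 and without either of EPO replicates 1 and 2 (all 6 h), with differences of 1.12 to 1.98 over all single arrays left out. On the slides with both groups the Lcn2 difference was 0.58 to 0.71 with saline and 0.77 to 1.14 with EPO.

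The 2 h arrays of Lcn2 overlapped: sham gave -3.49, -3.09 and -3.21, saline -4.11, -3.04 and -3.55, and EPO -4.03, -3.71 and -3.44. Between 2 h and 6 h Lcn2 rose by 1.58 ± 0.40 in ischemia with saline (adjusted p = 0.0297) and by 2.19 ± 0.40 with EPO (adjusted p = 0.00383), and differed by 0.20 ± 0.40 in sham (adjusted p = 0.849). The saline rise was 1.28 without the steep arrays (adjusted p = 0.354), and its call was also lost without either of saline replicates 1 and 3 at 2 h or 1 and 2 at 6 h. Markers of neutrophils moved at the same time. Of 13 listed, 8 were measured, 4 rose in ischemia with saline at 6 h and 5 with EPO, with a median difference of 1.16 and 1.26. Their summed signal, in units of the 75th percentile of the array, was 0.79 to 1.16 in sham, 1.88 to 2.28 with saline and 1.65 to 3.06 with EPO at 6 h. The granule gene Mpo was well above background on 2 of 18 arrays, Mmp8 on 2, Cxcr2 on 1 and Ngp on 5. Leaving out the steep arrays, 0 neutrophil markers were called with saline (1 array left) and 3 with EPO, and 3 with EPO also without sham replicate 1. The part of these cells in the Lcn2 values was not tested.

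Nes, which encodes nestin, an intermediate filament protein of neural progenitors, reactive astrocytes and growing vessels, had the smallest standard error among the members that rose against sham. It lies on chromosome 2 at 175735715 to 175745631. Its brighter probe read -0.24, -0.35 and -0.47 in sham at 6 h, 0.39, 0.29 and 0.46 with saline, and 0.61, 0.66 and 0.50 with EPO. The 3 groups did not overlap: sham was lowest and EPO highest. Nes was 1.66-fold higher than sham with saline (0.73 ± 0.08, adjusted p = 4.82e-05) and 1.92-fold higher with EPO (0.94 ± 0.08, adjusted p = 4.38e-06). Both differences passed under all 17 alternative settings and without any single one of the 18 arrays. On slides with both groups they were 0.64 to 0.71 with saline and 0.74 to 1.01 with EPO.

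At 2 h sham read highest on the brighter Nes probe, and the ischemic groups overlapped. Sham read 0.02, 0.06 and 0.14, saline -0.12, -0.25 and -0.15, and EPO -0.31, -0.23 and -0.12. Both ischemic groups lay below sham with no overlap, but neither difference passed the test: -0.25 ± 0.08 with saline (adjusted p = 0.162) and -0.30 ± 0.08 with EPO (adjusted p = 0.0854). Sham itself moved with time, being lower at 6 h than at 2 h by 0.43 on the log2 scale (-0.43 ± 0.08, adjusted p = 0.0267), the 1 member called among the sham groups, where 0.482% of all probes were (0.171% lower). That sham difference was called under 10 of 17 alternatives, it was -0.48 without the steep arrays (adjusted p = 0.153), and its call was lost without any 1 of 5 of the 6 sham arrays, all except sham replicate 1 at 6 h. From 2 h to 6 h Nes rose by 0.55 ± 0.08 in ischemia with saline (adjusted p = 0.000679) and by 0.81 ± 0.08 with EPO (adjusted p = 3.6e-05). The saline rise was 0.49 without the steep arrays (adjusted p = 0.164). In order of the group means Nes ran from sham at 6 h (-0.35) through EPO at 2 h (-0.22), saline at 2 h (-0.17), sham at 2 h (0.07) and saline at 6 h (0.38) to EPO at 6 h (0.59), and of these neighbours sham at 6 h overlapped EPO at 2 h, and EPO overlapped saline at 2 h.

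The dimmer of the 2 Nes probes gave the same signs in these comparisons. Its differences from sham at 6 h were 0.77 ± 0.16 with saline (adjusted p = 0.00747) and 1.09 ± 0.16 with EPO (adjusted p = 0.000534). At 2 h they were -0.32 ± 0.16 in both ischemic groups (adjusted p = 0.476 and 0.457), and sham differed by -0.51 ± 0.16 between the times (adjusted p = 0.262). The probes thus differ on the sham call, which the dimmer one did not pass. On the dimmer one the EPO arrays also overlapped sham at 2 h and saline at 6 h.

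Gfap, the filament protein that defines reactive astrocytes in histology, is on chromosome 10 at 88352987 to 88361661. Its 10 spots per array averaged 1.79, 2.09 and 1.69 in sham at 6 h, 1.96, 2.26 and 2.50 with saline, and 2.61, 2.69 and 2.35 with EPO. The EPO arrays all lay above sham, while the lowest saline array fell within the sham range. Gfap was 1.61-fold higher with EPO than in sham (0.69 ± 0.18, adjusted p = 0.0212), and with saline the difference was 0.38 ± 0.18 (adjusted p = 0.228). The EPO call was lost without either of sham replicates 1 and 3, and without either of EPO replicates 1 and 2. The difference was 0.76 without the steep arrays (adjusted p = 0.0679). On the slides that held both groups, the EPO difference was 0.56 to 0.59 and the saline difference 0.17 to 0.71. At 2 h Gfap read 1.88, 1.90 and 1.44 in sham, 1.62, 1.71 and 1.96 with saline, and 1.80, 2.37 and 2.06 with EPO, with all groups overlapping.

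Vim encodes vimentin, the filament protein of mesenchymal and vascular cells and of reactive astrocytes, and is on chromosome 17 at 81577261 to 81585746. It did not part ischemia from sham. At 6 h it read 2.67, 3.00 and 2.57 in sham, 2.72, 2.66 and 2.62 with saline, and 2.87, 2.85 and 2.74 with EPO. The differences were -0.08 ± 0.11 with saline (adjusted p = 0.702) and 0.07 ± 0.11 with EPO (adjusted p = 0.83), with 95% intervals of -0.33 to 0.17 and -0.17 to 0.32. Vim read higher at 6 h than at 2 h in every group. The time difference was 0.30 ± 0.11 in sham (adjusted p = 0.406), 0.36 ± 0.11 with saline (adjusted p = 0.0723) and 0.55 ± 0.11 with EPO (adjusted p = 0.00773), and of these the EPO difference passed (0.48 without the steep arrays, adjusted p = 0.0923). Its 2 h signals were 2.51, 2.49 and 2.35 in sham, 2.44, 2.25 and 2.21 with saline, and 2.06, 2.35 and 2.42 with EPO, and in none of the 3 pairs did the times overlap. Of the 3 filament genes at 6 h, Nes was called in both ischemic groups, Gfap in the EPO group and Vim in neither, and the differences between these genes were not tested.

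**Figure D2:**
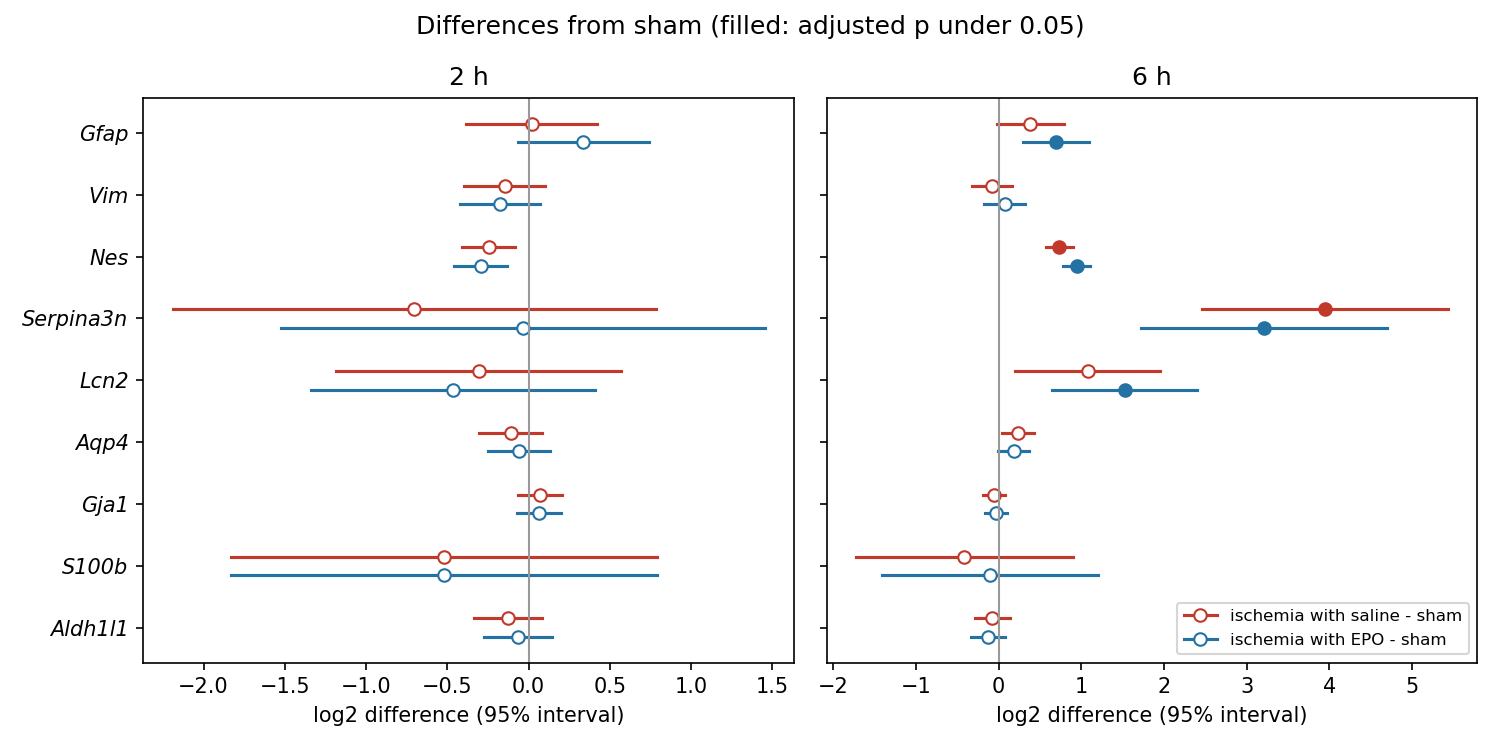
Log2 differences from sham (x axis, scale set per panel) for the 9 genes (y axis) at 2 h and 6 h, for ischemia with saline (red) and with EPO (blue). Lines are 95% intervals from the fitted standard error and 12 residual degrees of freedom. Filled points have an adjusted p under 0.05: none at 2 h, and at 6 h Nes and Serpina3n in both groups and Gfap and Lcn2 with EPO.

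The 4 identity markers gave no call in any of the 12 comparisons. Aqp4, the water channel of astrocyte endfeet, read 0.65, 0.45 and 0.39 in sham at 6 h, 0.70, 0.67 and 0.81 with saline, and 0.60, 0.66 and 0.76 with EPO. The saline arrays all lay above sham, by 0.24 ± 0.09 on average, but the difference did not pass (adjusted p = 0.109); with EPO it was 0.18 ± 0.09 (adjusted p = 0.209). At 2 h Aqp4 differed from sham by -0.11 ± 0.09 and -0.06 ± 0.09 in the saline and EPO groups (adjusted p = 0.631 and 0.741). Its array values over all groups ran from 0.39 to 0.84.

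Gja1, which encodes connexin 43, the main gap junction protein of astrocytes, lies on chromosome 20 at 36302490 to 36315010 and had the smallest spread between arrays of a group among the members. Over the 18 arrays its bright probe ran from 4.08 to 4.27, and only 4.1% of the probes tested had a smaller spread between arrays of a group. The differences from sham were 0.07 ± 0.06 and 0.06 ± 0.06 at 2 h and -0.06 ± 0.06 and -0.03 ± 0.06 at 6 h for saline and EPO (adjusted p = 0.653, 0.623, 0.634 and 0.872). The 95% intervals at 6 h, -0.19 to 0.08 and -0.17 to 0.10, give the sizes of shift these arrays leave possible. On no array were most of the kept spots of a Gja1 probe flagged as saturated. A second Gja1 probe was not well above background on any array and was not tested.

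Aldh1l1, a folate enzyme of astrocytes that the array lists under its older name Fthfd, is on chromosome 4 at 124617182 to 124663674 and ran from 1.39 to 1.79. At 6 h it read 1.79, 1.77 and 1.71 in sham, 1.64, 1.70 and 1.69 with saline, and 1.39, 1.79 and 1.70 with EPO. The saline and sham arrays did not overlap, yet the difference was -0.08 ± 0.10 (adjusted p = 0.679), close to the median over all probes; with EPO it was -0.13 ± 0.10 (adjusted p = 0.478). At 2 h the differences were -0.13 ± 0.10 and -0.06 ± 0.10 (adjusted p = 0.628 and 0.744).

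S100b, a calcium-binding protein of astrocytes and part of the oligodendrocyte lineage, with its gene on chromosome 20 at 12372345 to 12381159, varied widely from array to array within groups. Sham at 6 h read 0.98, -0.53 and 1.47, saline 0.08, 0.28 and 0.31, and EPO 1.25, -0.02 and 0.37, and at 2 h sham read 0.45, 1.31 and 1.22, saline -0.36, 0.70 and 1.08, and EPO 0.97, -0.83 and 1.27. Saline at 6 h was the 1 group whose arrays lay close together, and the other 5 each mixed higher and lower arrays. The spread between arrays of a group was 0.77 (SD), larger than that of 89.0% of the probes tested, while the 10 spots of the probe within an array had a median SD of 0.08. Repeated spots thus agreed closely on arrays that differed greatly. In sham at 6 h the 10 spots ran from -0.69 to -0.43 on replicate 2 and from 1.30 to 1.60 on replicate 3. The differences of S100b from sham were -0.52 ± 0.60 in both ischemic groups at 2 h and -0.41 ± 0.60 and -0.10 ± 0.60 at 6 h with saline and EPO (adjusted p = 0.7, 0.669, 0.71 and 0.959). The 95% intervals at 6 h, -1.72 to 0.89 and -1.41 to 1.21, give the sizes of S100b shift these arrays leave possible.

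**Figure D3:**
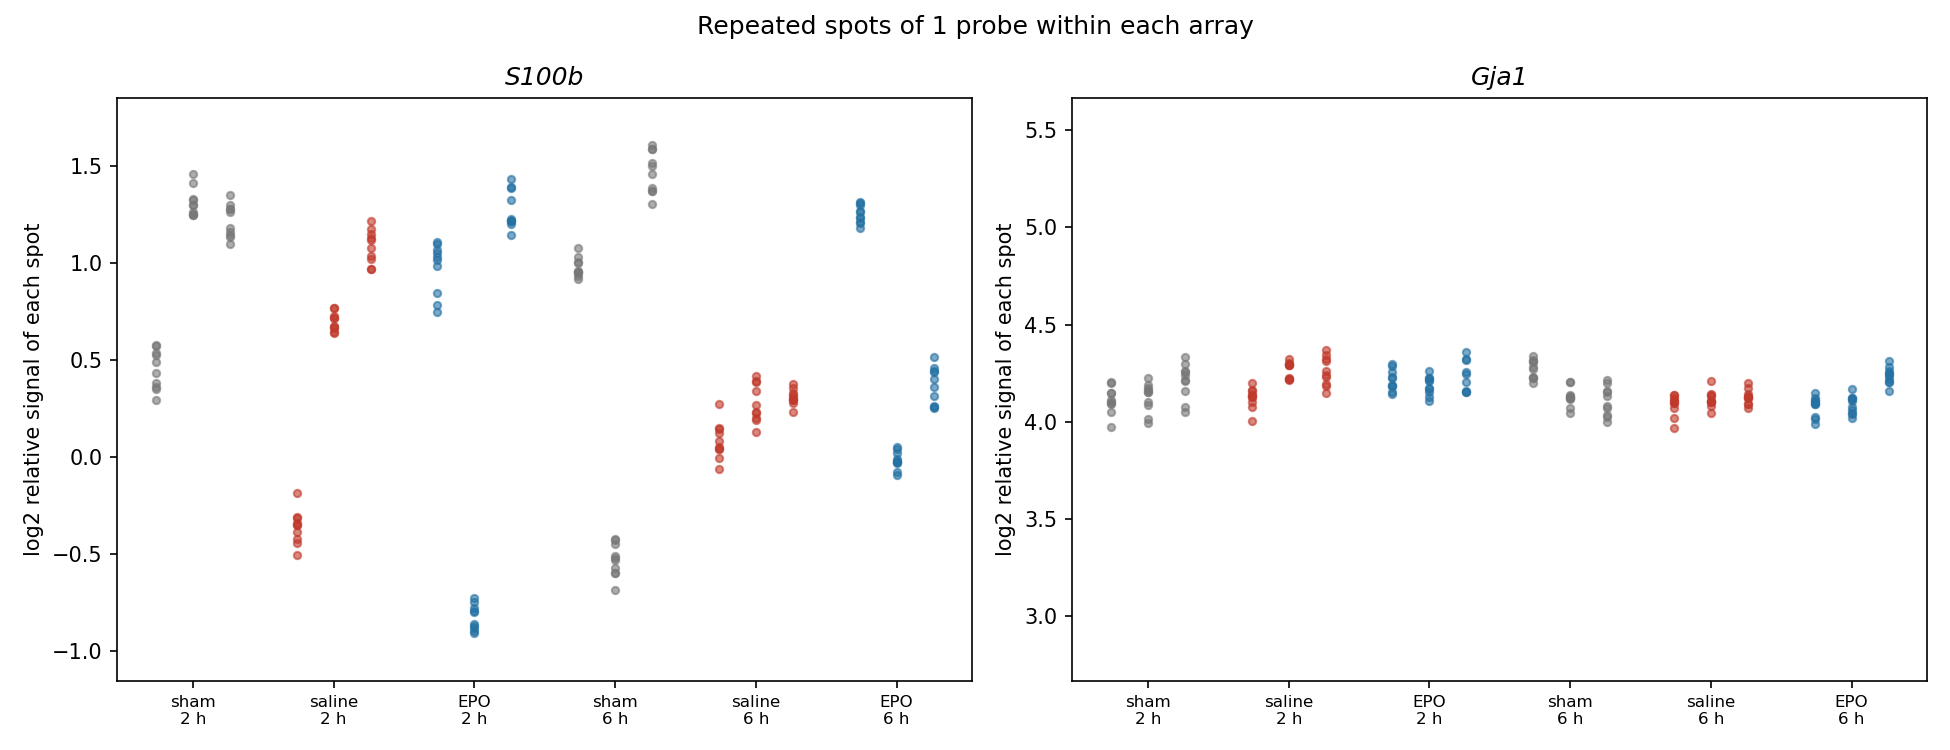
Log2 relative signal of every spot of the S100b probe (left) and the bright Gja1 probe (right), each printed 10 times on an array, for the 18 arrays by group (x axis; sham grey, saline red, EPO blue). Both y axes span the same range of 3 log2 units. Spots of 1 array lie close together for both genes, while the arrays of a group lie far apart for S100b and together for Gja1.

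EPO was set directly against saline in the ischemic cortex at each time. None of the 9 genes passed at 2 h or at 6 h in limma, and neither did any of the 28634 probes (0% called). At an unadjusted p under 0.05 there were 0 members at 2 h and 1 at 6 h, Nes, against 381 (1.33%) and 1184 (4.13%) of all probes. On its brighter probe Nes read higher on every EPO array than on every saline array at 6 h, by 0.21 ± 0.08 (adjusted p = 0.778). On its dimmer probe these groups overlapped (0.31 ± 0.16, adjusted p = 0.778). The other differences at 6 h were 0.31 ± 0.18 for Gfap, 0.15 ± 0.11 for Vim, 0.45 ± 0.40 for Lcn2 and -0.73 ± 0.68 for Serpina3n (adjusted p = 0.778 for each). Of these, Vim also read higher on every EPO array than on every saline array. No share of all probes is given beside this non-overlap of Nes and Vim, so it is not read as a difference. At 2 h Gfap differed by 0.32 ± 0.18 and Nes by -0.05 ± 0.08 (adjusted p = 1 for both). The calls of Gfap and Lcn2 against sham with EPO but not with saline are therefore not shown to be effects of EPO, since the 95% interval of EPO minus saline at 6 h was -0.09 to 0.71 for Gfap and -0.43 to 1.33 for Lcn2. For the identity markers these intervals were -0.25 to 0.14 for Aqp4, -0.11 to 0.16 for Gja1, -0.26 to 0.16 for Aldh1l1 and -0.998 to 1.62 for S100b.

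An interaction term asked whether the difference from sham was itself unequal at the 2 times. For ischemia with saline it changed in 2 members, Nes (0.98 ± 0.11, adjusted p = 0.00111) and Serpina3n (4.65 ± 0.96, adjusted p = 0.032), where 1.43% of all probes were called. For ischemia with EPO it changed in Nes (1.24 ± 0.11, adjusted p = 0.000107), where 2.61% of probes were called, while Serpina3n gave 3.25 ± 0.96 (adjusted p = 0.0954) and Lcn2 1.99 ± 0.57 (adjusted p = 0.0831). Of the Nes interaction with saline, the sham arrays' own fall of 0.43 is part. The interaction of Serpina3n rests on 2 h values near background. Without the steep arrays the saline interactions were 0.97 for Nes (adjusted p = 0.13) and 3.66 for Serpina3n (adjusted p = 0.667). That of Serpina3n also failed in 9 of the 18 fits that each left out 1 array: sham at 2 h replicates 1 or 2, saline at 2 h replicates 1 or 3, sham at 6 h replicates 1 or 2, or any saline array at 6 h. For EPO minus saline, limma called a change between the times in 0 members and 0% of all probes, with 1 member (Nes) and 668 probes (2.33%) at an unadjusted p under 0.05. In the EPO interaction 3 members were called when EPO replicate 3 at 6 h was left out. Over the times within a group, 3 members rose with saline (7.41% of all probes called, 3.60% higher) and 4 with EPO (11.6%, 4.61% higher), as given above.

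Other genes linked to reactive astrocytes were read from lists. They too were read in whole cortex, and the cells that gave their signal were not told apart. Of all probes, 1.24% were called with saline at 2 h and 4.79% were higher at 6 h (1.33% and 6.53% with EPO). Of 7 measured pan-reactive astrocyte genes besides the members, 2 rose in ischemia with saline at 2 h and 6 at 6 h, with a median difference of 1.27 at 6 h against -0.13 over all probes. Hspb1, a small heat shock protein, rose by 2.03 ± 0.13 at 2 h and 3.44 ± 0.13 at 6 h, and Timp1, an inhibitor of matrix proteases, by 1.57 ± 0.19 and 2.70 ± 0.19. The chemokine Cxcl10 rose by 2.92 ± 0.24 and the hyaluronan receptor Cd44 by 1.20 ± 0.14 at 6 h. With EPO the counts were also 2 and 6, with a median of 1.54 at 6 h. Of 10 genes linked to neuroinflammatory (A1) astrocytes, 0 changed at 2 h and 5 rose at 6 h with saline, led by the GTPase Gbp2 (2.38 ± 0.12), and of 9 linked to ischemic (A2) astrocytes 2 rose at 2 h and 6 at 6 h, among them Cd14 (1.73 ± 0.18) and Emp1 (1.22 ± 0.16). At 6 h with EPO, 6 A1 genes rose and 1 fell (Fkbp5, -0.73 ± 0.14) and 6 A2 genes rose. Without the steep arrays, with 1 saline array left at 6 h, the counts with saline at 6 h were 3, 1 and 0 for these 3 lists, and those with EPO were 6, 8 and 5; at 2 h they were 2, 0 and 1 with either treatment. The A1 count with saline at 6 h was 3 without any 1 of the sham arrays at 6 h or of saline replicates 2 and 3. The A2 count at 2 h was as low as 1 with single arrays left out.

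Of 23 cytokine and STAT3 pathway genes that signal to astrocytes, 4 rose in ischemia with saline at 2 h and 13 at 6 h (3 and 14 with EPO), and none fell. Of all probes, 1.24% were called with saline at 2 h (1.33% with EPO). At 6 h, 4.79% were higher and 6.26% lower with saline (6.53% and 9.59% with EPO). With saline at 6 h the median difference was 0.73 for this list, against -0.13 over all probes. It was 0.05 for the matrix list and -0.02 for the filament list that follow. Cebpd, a transcription factor of the acute-phase response, rose by 1.21 ± 0.12 at 2 h and 1.91 ± 0.12 at 6 h, and Il1b, interleukin-1 beta, by 1.90 ± 0.29 and 3.14 ± 0.29. Glial scar and matrix genes rose in 5 of 12 and fell in 1 at 6 h with saline (6 and 1 with EPO), with Sdc1 at 2.11 ± 0.10 and Lgals3 at 1.23 ± 0.11. Of 12 filament partners and progenitor genes, 2 rose and 1 fell at 6 h with saline: Lmna (0.78 ± 0.11), Fabp5 (0.34 ± 0.06) and Prom1 (-0.82 ± 0.16). Without the steep arrays 4 of the 23 pathway genes, 1 of the 12 matrix genes and 1 of the 12 filament and progenitor genes were called with saline at 6 h (1 array left), and 12, 4 and 3 with EPO. At 2 h the pathway count was then 2 with saline and 0 with EPO. With EPO at 6 h, 2 filament and progenitor genes were called without any 1 sham array or EPO replicate 2.

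Other astrocyte identity genes went both ways. Of 36 listed, 32 were measured, and their median difference from sham at 6 h was 0.02 with saline and -0.04 with EPO. Of the 32, 4 were called at 6 h with saline and 6 with EPO, near the shares of all probes. With saline at 6 h, Fabp7, a fatty acid carrier of immature astrocytes, rose by 0.58 ± 0.10, and Ppp1r3c, a glycogen-targeting subunit, by 0.60 ± 0.14. The gap junction gene Gjb6 (connexin 30), partner of Gja1, fell by 0.72 ± 0.14, and the thyroid hormone transporter Slco1c1, also of vessels, by 0.42 ± 0.10. With EPO at 6 h, 3 rose and 3 fell, with Gjb6 at -0.99 ± 0.14. At 2 h only the transcription factor Sox9 was called, higher by 0.56 ± 0.11 with saline and 0.63 ± 0.11 with EPO, and it was also higher in sham at 6 h than at 2 h by 1.01 ± 0.11. Fabp7, like Nes, was lower in sham at 6 h than at 2 h (-0.57 ± 0.10). Without the steep arrays 0 genes of this list were called with saline at 6 h (1 array left) and 4 with EPO, and 0 at 2 h. Sox9 and the other genes of the list gave 0 calls at 2 h with saline without any 1 of sham replicates 2 and 3 and the 3 saline arrays at 2 h, and 0 with EPO without sham or EPO replicate 2 at 2 h.

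**Figure D4:**
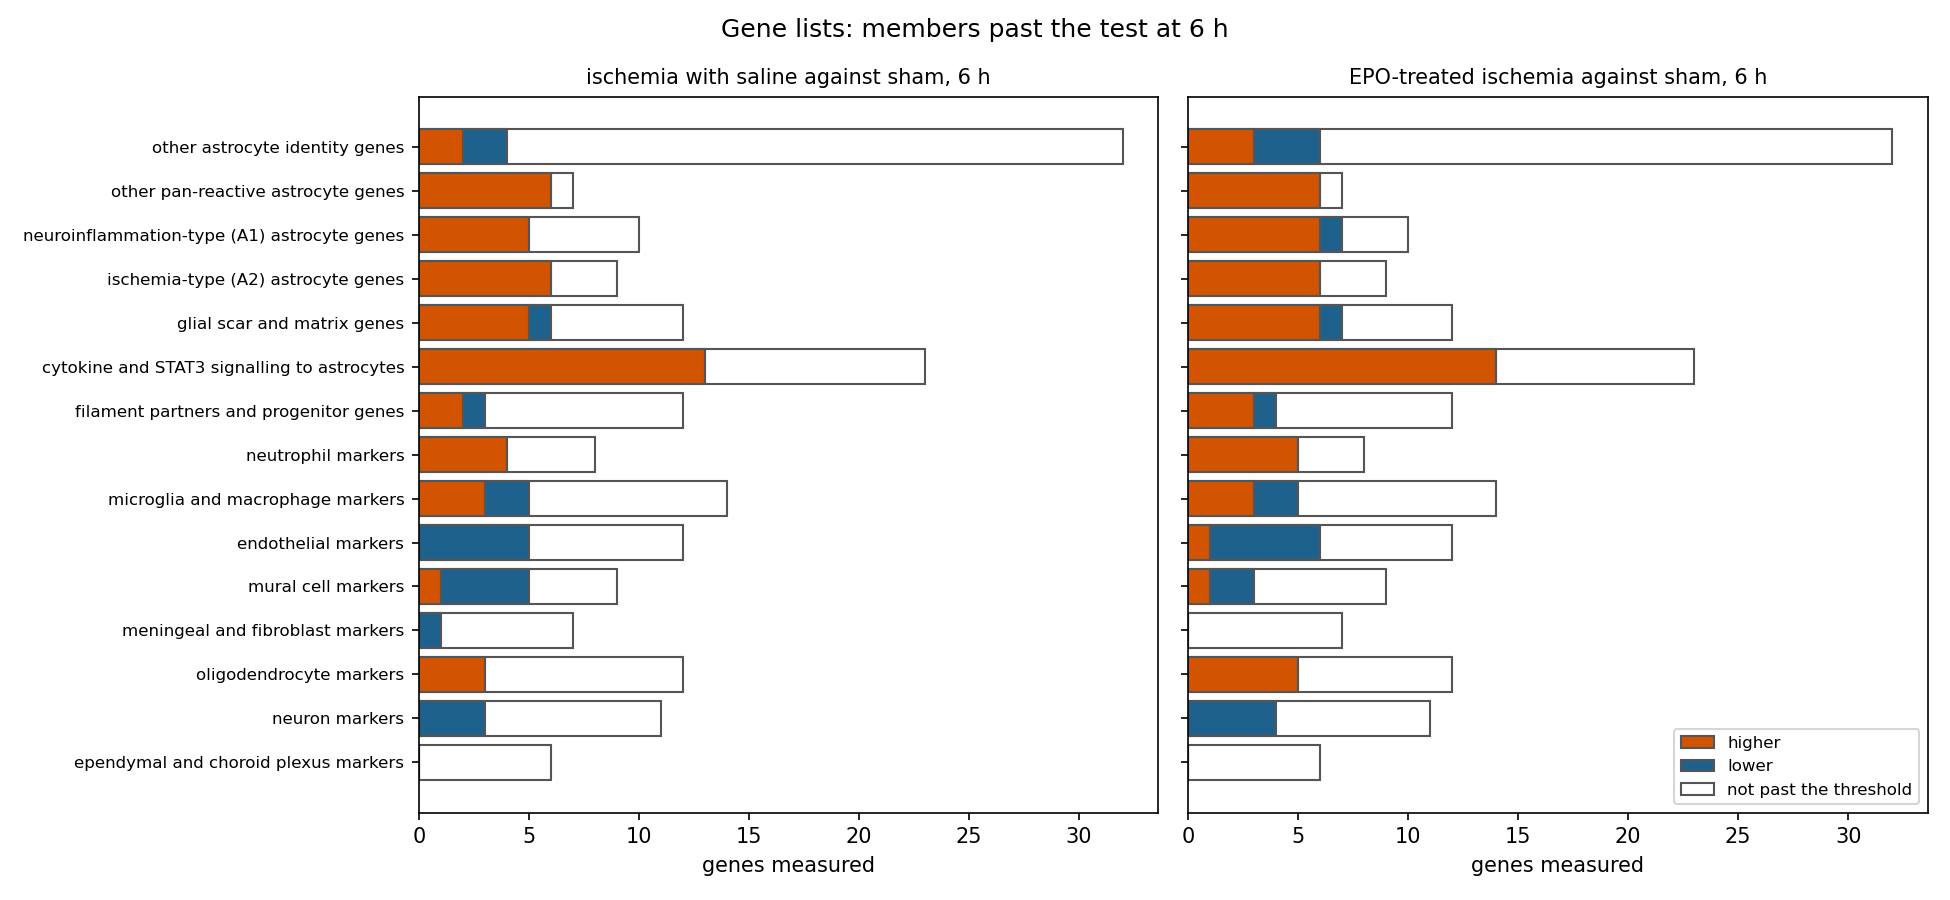
Number of genes per list (x axis) that were measured (bar length), higher (orange) and lower (blue) past the test at 6 h, for ischemia with saline (left) and with EPO (right) against the same sham arrays. Of the pan-reactive genes 6 of 7 rose in each, and of the other astrocyte identity genes 4 and 6 of 32 were called in either direction, where 11.0% and 16.1% of all probes were.

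Markers of other cells changed beside these genes at 6 h, when 6.26% of all probes were called lower with saline and 9.59% with EPO. With saline, 5 of 12 endothelial markers fell and none rose, and 4 of 9 mural cell markers fell and 1 rose. Among 14 markers of microglia and macrophages, 3 rose and 2 fell; 3 of 12 oligodendrocyte markers rose, 3 of 11 neuron markers fell, 1 of 7 meningeal markers fell and 0 of 6 ependymal and choroid plexus markers changed (0 also with EPO). With EPO, 5 endothelial markers fell and 1 rose, 2 mural markers fell and 1 rose, 3 microglial markers rose and 2 fell, 5 oligodendrocyte markers rose, 4 neuron markers fell and 0 meningeal markers changed. Endothelial markers summed to 17.1 to 21.1 in sham, 16.3 to 17.6 with saline and 17.6 to 21.2 with EPO, and neuron markers to 194 to 208, 178 to 182 and 169 to 185. Microglia and macrophage markers summed to 36.5 to 41.8 in sham, 42.1 to 46.9 with saline and 38.9 to 46.9 with EPO. With 1 array of the 18 left out, the calls with saline ranged from 1 to 5 for oligodendrocyte, 1 to 3 for neuron, 3 to 6 for endothelial, 3 to 5 for mural, 3 to 5 for microglial and 0 to 2 for meningeal markers. With EPO they ranged from 2 to 7 for oligodendrocyte, 3 to 6 for endothelial, 3 to 5 for neutrophil and 0 to 1 for ependymal markers. For oligodendrocyte markers the lowest count with saline came without sham replicate 2 or saline replicate 3 at 6 h, and that with EPO without sham replicate 2 or 3 or EPO replicate 1. Neuron markers with saline gave 1 call without sham replicate 3 or saline replicate 2 or 3, and endothelial markers with EPO gave 3 without sham replicate 1. Without the steep arrays, which leaves 1 saline array, these lists had 0 calls with saline at 6 h, and with EPO 4 microglial, 4 endothelial, 1 mural, 5 oligodendrocyte and 2 neuron markers were called. The part of these cells in the Nes, Vim and S100b values was not tested. Ependymal and choroid plexus markers summed to between 1.90 and 39.6 over the arrays, with a wide range in every group.

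The genes most like each member over the 18 arrays, among 10729 genes well above background on every array, are given as a description, since all share the same groups, slides and arrays. Serpina3n ran closest to Cd44 (Pearson r = 0.96), the amino acid transporter Slc1a5 (0.95) and Marchf3 (0.95). Nes ran closest to Ltbr (0.94), the lymphotoxin beta receptor, Niban2 (0.94) and Glce (0.93), and Lcn2 to Plp2 (0.94), Prss23 (0.92) and Mcmbp (0.91). Gfap ran with Fgfr1 (0.88), a growth factor receptor, Ccnd2 (0.87) and Sptlc2 (0.86), and Vim with Sigirr (0.93), Lrg1 (0.92) and Eva1b (0.89). The closest for the identity members were Eps8 for Aqp4 (0.90), Arhgap21 for Aldh1l1 (0.85), Gstt2 for Gja1 (0.80) and Olr1433 for S100b (0.78). With each value centred on its group mean the closest genes were others for 8 of the 9 members, such as Tmem86a for Serpina3n (0.84) and Klc1 for Nes (0.87), while for S100b Ikbip and Olr1433 were among the 3 closest in both (0.78 and 0.78, and 0.85 and 0.82 after centring).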

How the data were processed

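The 18 single-colour arrays were read from the deposited Agilent Feature Extraction files (version 9.1.1.1, per the submitters' processing notes), whose processed signal is a background-subtracted intensity per the file headers. The authors' deposited value table holds log2 signal and equals the mean log2 processed signal over all spots of a probe, with no scaling between arrays (largest difference 5.3e-14). Here outlier-flagged spots were dropped, spots of a probe averaged as log2, and the 75th percentile over all non-control spots of the array subtracted. Of 41012 probes, 28634 that were well above background on all 3 arrays of at least 1 group were tested, and a further 345 were set aside because an array had no usable spot for them. Names came by accession (10735), symbol (5571) or synonym (3729) through RefSeq's rat annotation. The probe of highest mean signal stands for its gene.

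Differences were tested with limma 3.58.1 in R 4.3.3 in 1 model of the 6 group means with 12 residual degrees of freedom, two-sided, adjusted by Benjamini-Hochberg over all probes at 0.05, for 12 comparisons. The procedure was run on simulated data with independent noise on each array. These lacked the slides and steep arrays of the real data, so their part was not tested there. All 9 members are named with all probes, and from each list at most 4 genes of smallest p among those called whose groups do not overlap, and for each member the 3 genes of highest correlation. The members, lists and tests were chosen with earlier results of these data known. Replicate numbers were checked for pairing: same-number samples correlated above 0.1 in all 3 pairs for EPO against saline at 2 h (0.635 to 0.887). In the other comparisons not all 3 pairs did. For EPO against saline at 2 h the fit with the number as a block also called 0 members. Replicate 1 was the steep array in both of these 2 h groups, so pairing and array kind cannot be told apart there. Alternatives varied the background correction, scaling, filter, outlier spots, probe rule, variance model, arrays in the fit, replicate and slide blocks and the spike-in class, and left out each array in turn. The percentile over probe means was added after seeing the data.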

Additional observations from a re-analysis of the deposited data

Results flagged for a closer look

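The effect of ischemia on Nes differed between the times, by a test of the difference itself. The log2 difference from sham was higher at 6 h than at 2 h by 0.98 ± 0.11 with saline (adjusted p = 0.00111) and by 1.24 ± 0.11 with EPO (adjusted p = 0.000107), and the second Nes probe gave 1.095 ± 0.23 and 1.41 ± 0.23 (adjusted p = 0.0311 and 0.00592). Both share the sham arrays, which were lower at 6 h than at 2 h.

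The saline effect on Serpina3n also differed between the times, by 4.65 ± 0.96 (adjusted p = 0.032). At 2 h this gene was well above background on 1 of 3 sham and 1 of 3 saline arrays.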

How the results depend on the processing

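No call of a member changed sign under the 17 alternatives. Nes at 6 h was called against sham in both ischemic groups under all 17. Serpina3n was called with saline under 15 of 16 that could test it and with EPO under 14 of 16, and against sham with EPO Gfap was called under 13 of 17 and Lcn2 under 14 of 17. Lcn2 with saline at 6 h was called under 2, with the spike-in class as a block or the slope as a covariate.

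For ischemia with saline at 6 h the count of members called, 2, was 1 when probes had to be above background on all arrays and 1 without the steep arrays. For EPO-treated ischemia at 6 h the count of 4 was 2 with no scaling, 1 with only the groups compared, 2 without the steep arrays and 2 without the 2 arrays whose title numbers stand apart. The sham time count of 1 was 0 with no scaling, no filter, the mean of a gene's probes, only the groups compared, the replicate block, slide as a fixed block, and without the steep arrays. The time count with saline, 3, was 0 without the steep arrays, and that with EPO, 4, was 1 with only the groups compared. The saline interaction count of 2 was 1 with quantile normalization, no filter, the filter on all arrays, the replicate block, slide as a fixed block and without the arrays of apart titles, and 0 without the steep arrays. The filter on all arrays removed Serpina3n, which was well above background on 14 of the 18 arrays, so it could not be called there. In the other settings the cause was not tested, apart from the fewer arrays of some fits. The replicate block changed no other count by over 1.5 times. The replicate numbers are not known to pair the samples in any comparison.

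Leaving out 1 array at a time gave 2 to 2 members for saline against sham at 6 h and 2 to 4 for EPO, 0 to 0 for both at 2 h and for EPO against saline at either time, 0 to 1 in sham over time, 2 to 4 and 4 to 4 over time with saline and EPO, 1 to 2 and 1 to 3 for their interactions, and 0 to 0 for EPO with time. Signals near background limit Serpina3n at 2 h, and 3 arrays per group limit S100b.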
